A study of Danio rerio with 20 samples.

Results

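Livers of zebrafish larvae homozygous for a deletion in as3mt were compared with wild-type livers after both had been exposed to inorganic arsenic. The comparison uses 10 of the 20 libraries of the study, chosen by the genotype and the arsenite dose in their labels: 5 exposed mutant libraries and 5 exposed wild-type libraries. All 16389 genes that passed a filter on low counts, of 32105 in the files, were tested. Each library is messenger RNA from 1 pool of 12 to 15 livers, dissected about 119 h after fertilization from larvae kept at 20 per well, with 1 mM sodium arsenite (iAs) present from 96 h. Wild-type larvae are labelled wt-tab5. The mutants, as3mt-/-, carry a CRISPR deletion of 8 bp in exon 3 that brings a premature stop, on the WT-ABNYU background. Genotype and strain background therefore differ together and cannot be told apart, so every difference below is a difference between these lines. The other 10 libraries, of the same lines at 5 days after fertilization with 0 mM arsenite, served to show which differences were already present without arsenite. Sample titles end in cl and the replicate number, which the labels do not explain. Nothing else in the labels says whether pools came from separate clutches, so p-values measure the spread between these pools.

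Inorganic arsenic is methylated in the liver by As3mt, which takes methyl groups from S-adenosylmethionine and needs thiol reductants, and the methylated forms are excreted. Trivalent arsenic binds protein thiols, and cells exposed to it are known to raise antioxidant, heat shock and proteasome genes. Hepatocytes, the main cell of this organ, also make most plasma proteins and carry out bile acid, amino acid, lipid and drug metabolism.

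The targeted gene, listed as AS3MT (ENSDARG00000027572), was counted in every library. In exposed wild-type libraries 1 to 5 it stood at 31.5, 73.6, 39.7, 29.8 and 55.0 CPM (read counts relative to library size, at library sizes scaled by TMM), and in exposed mutant libraries 1 to 5 at 18.7, 11.9, 10, 8.62 and 16.2 CPM. Every exposed mutant lay below every exposed wild type. The fitted difference was 3.5-fold lower in mutants, a log2 difference of -1.81 ± 0.23 (SE) with an edgeR adjusted p of 9.34e-06; the exact 2-sided permutation test of 5 against 5 gave its smallest possible p, 0.0079. Without arsenite the gene was lower in mutants too, at 72.7 CPM against 125 CPM in wild type (log2 -0.78 ± 0.22, edgeR adjusted p = 0.0213). The change of this difference with arsenite did not pass edgeR's test (adjusted p = 0.0679). A deletion this short leaves the rest of the transcript countable, so a lower count does not by itself check the genotype.

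Total counts ran from 25406597 to 42047561 in exposed wild type and from 32805944 to 40961344 in exposed mutants, with 20543 to 21409 and 21076 to 22028 genes detected. Mitochondrial genes took 4.89 to 6.07% of counts in exposed wild type and 5.83 to 7.06% in exposed mutants. Component 1 of the 10 exposed libraries, with 43.1% of the variance, separated the lines (wild type -54.4 to -40.4, mutants 40.8 to 61.5). Component 2, with 17.2%, set exposed wild-type library 5 apart at 71.0. Over all 20 libraries, component 1 (54.7%) ordered the groups by exposure and placed every exposed mutant (83.4 to 113.5) beyond every exposed wild type (29.6 to 74.7). The liver label held, with hepatocyte markers summing to 42011 to 137851 CPM over the 10 exposed libraries. Exocrine pancreas markers, digestive enzymes of the neighbouring organ, summed to 91.5, 32.8, 85.0, 50.9 and 75.8 CPM in exposed wild-type libraries 1 to 5 and to 941, 121, 240.3, 381 and 52.2 CPM in exposed mutant libraries 1 to 5. Only mutant library 5 lay within the wild-type range. The part of this in the results was not tested, apart from a fit with the mean log2 CPM of these markers as a covariate, in which 923 genes were higher and 1684 lower.

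The exposed lines differed widely. At an adjusted p under 0.05 in edgeR's quasi-likelihood test, 3369 of 16389 genes differed (20.6%), 1259 higher in exposed mutants (7.68%) and 2110 lower (12.9%). The median fold was 1.88 among the higher and 1.86 among the lower genes, and 1507 (9.2%) differed by more than 2-fold, 579 higher (3.53%) and 928 lower (5.66%). The 5 mutant and 5 wild-type libraries did not overlap for 2525 genes (15.4%), which included 67.5% of the higher and 60.5% of the lower calls. The 10 largest differences each way, some of them named below, were picked among these genes. For them the lack of overlap is no separate support. The split of calls depended on scaling. Scaling to total counts alone moved the median of all tested genes from -0.03 to 0.25 on the log2 scale and gave 4294 higher and 1176 lower genes (78.5% higher, against 37.4%), so directions here are relative to the bulk of measured genes.

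Part of the difference was present without arsenite. The unexposed lines differed in 2265 genes (13.8%), and 416 of the 1259 higher genes (33.0%, and 43.0% of those higher without arsenite) and 670 of the 2110 lower genes (31.8% and 51.7%) were called in the same direction there. The genotype difference changed with arsenite, by a test of the interaction over all 20 libraries, in 652 genes (3.98%). This held for 118 of the higher genes, which moved up (9.37%), and 375 of the lower, which moved down (17.8%). Another 734 higher and 1101 lower genes passed neither test, so for them the data do not say whether arsenite altered the difference. Leaving out 1 library at a time gave 383 to 793 changed genes. The count fell to 383 without exposed mutant library 3, 405 without exposed mutant library 4 and 408 without exposed wild-type library 2.

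**Figure D1:**
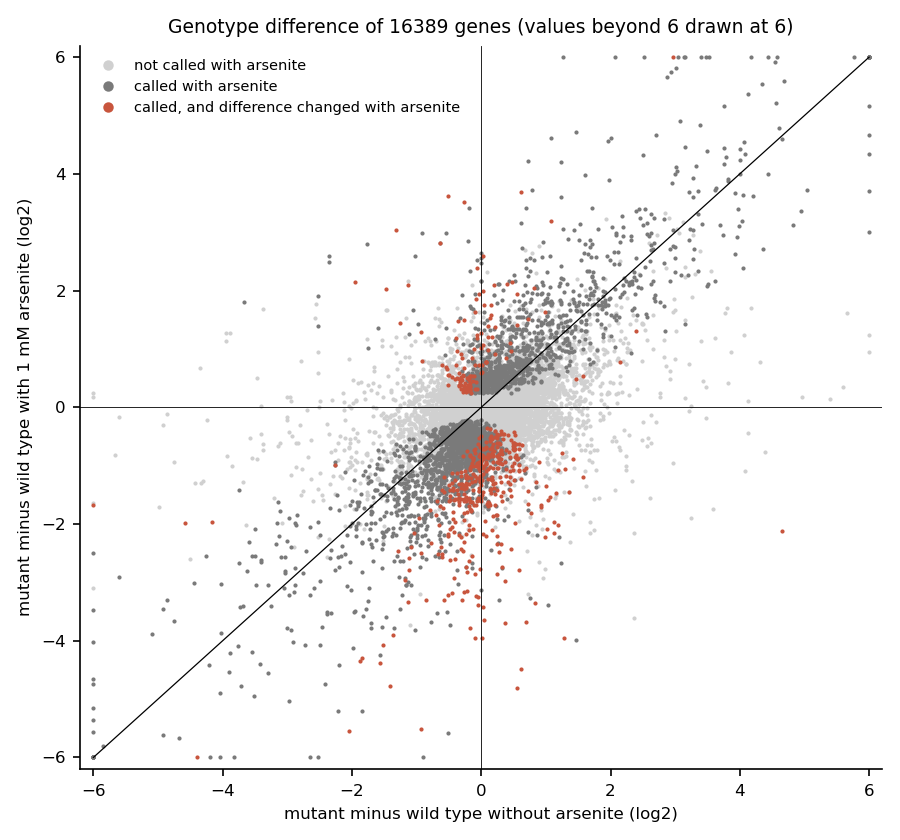
Log2 difference between mutant and wild type with 1 mM arsenite (vertical) against the same difference without arsenite (horizontal) for 16389 genes. Light grey points were not called with arsenite, dark grey points were, and red points were called and also changed with arsenite; most red points lie below the diagonal, and genes far along the diagonal differed alike at both exposures.

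Genes of arsenic handling differed in both directions. Of 31 measured members 5 were higher and 11 lower in exposed mutants (16.1% and 35.5%), with a median log2 difference of -0.42 against -0.03 over all tested genes. With total-count scaling 7 were higher and 7 lower, with a median of -0.14. Among the reductases of arsenic species, gsto2 (ENSDARG00000033285), an omega-class glutathione transferase, stood at 1085, 1191, 679.8, 677 and 311 CPM in exposed wild-type libraries 1 to 5 and at 2716, 4037, 1857, 2499 and 2141 CPM in exposed mutant libraries 1 to 5. All mutants were above all wild-type pools, by 3.36-fold (log2 1.75 ± 0.28, adjusted p = 0.000146). Its relative gsto1 averaged 16.9 ± 2.39 CPM (SD, n = 5) in exposed wild type and 99.1 ± 24.2 CPM in exposed mutants, 5.86-fold higher. It was called higher without arsenite too, at 0.22 and 1.1 CPM (log2 2.40 ± 0.62, edgeR adjusted p = 0.0135). Those low levels overlapped, with unexposed mutants at 1.32, 0.505, 0.496, 0.259 and 2.91 CPM and unexposed wild type up to 0.456 CPM. The gsto1 difference did not pass edgeR's test of a change (adjusted p = 0.955). Counts of these paralogues could be shared by the counting, which is not described. In unexposed livers gsto2 was near 5.76 CPM in wild type and 8.93 CPM in mutants, a difference that did not pass the test (adjusted p = 0.153). Of the exporters, ABCC5, a multidrug resistance pump, was 1.62-fold higher. Without both exposed mutant library 1 and exposed wild-type library 5, 3 members were higher. Supply of the methyl donor went the other way: both MAT2A copies, which make S-adenosylmethionine, were lower, MAT2A (ENSDARG00000037121) by 4.08-fold and MAT2A (ENSDARG00000040334) by 2.23-fold, while the regulatory subunit MAT2B was 1.31-fold higher, a call lost without exposed wild-type library 1. The purine nucleoside phosphorylase pnp4b, a kind of enzyme that can reduce arsenate, was 2.48-fold lower.

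Among antioxidant genes, 16 of 80 glutathione and Nrf2 targets were higher and 10 lower (20% and 12.5%, median 0.08). The lower share was near the 12.9% of all genes, of which 7.68% were higher. Scaled to total counts, 35 of these targets were higher and 4 lower. gstp1.2 (ENSDARG00000104068), a pi-class glutathione transferase, stood at 4895, 4047, 4345, 5484 and 5349 CPM in exposed wild-type libraries 1 to 5 and at 7356, 5915, 7980.3, 7048 and 7985 CPM in exposed mutant libraries 1 to 5. The groups did not overlap, and the 1.5-fold difference (adjusted p = 0.000497) was opposite in direction to that without arsenite, where mutants were lower (log2 -0.34 ± 0.11, adjusted p = 0.0374); the change passed the test (adjusted p = 0.00198). The gamma-glutamyltransferase ggt1b averaged 3.53 CPM in exposed wild type and 15.3 CPM in exposed mutants. Extracellular peroxidase gpx3 was 2.82-fold higher, and it was higher without arsenite as well (log2 1.79 ± 0.24). Of the lower members, the largest difference was that of gpx4a (ENSDARG00000068478), which reduces lipid hydroperoxides in membranes. It stood at 669, 1059.6, 677, 562 and 1009 CPM in exposed wild-type libraries 1 to 5 and at 186, 92.1, 249.7, 227 and 185 CPM in exposed mutant libraries 1 to 5. No mutant reached the lowest wild-type pool, the difference was 4.23-fold (adjusted p = 1.44e-06), and without arsenite it did not pass the test (log2 -0.48 ± 0.21, adjusted p = 0.141). TXN, thioredoxin, was 1.4-fold lower and CHAC2, which degrades glutathione, 2.49-fold lower. The count of lower members fell to 5 or 6 without exposed mutant library 2, 3 or 4 or without exposed wild-type library 2 or 5.

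Genes of the DNA damage response and cell death held 9 higher and 5 lower members of 52 measured (17.3% and 9.62%); the median was -0.10, and 0.18 with total-count scaling. mdm2 (ENSDARG00000033443), a ubiquitin ligase induced by DNA damage, stood at 42.8, 27.4, 43.0, 52.8 and 42.3 CPM in exposed wild-type libraries 1 to 5 and at 100.5, 91.1, 145, 119 and 134 CPM in exposed mutant libraries 1 to 5. Every exposed mutant was above the wild-type range, by 2.83-fold (adjusted p = 7.03e-07). Without arsenite the difference did not pass the test (log2 -0.27 ± 0.15), and it changed with arsenite (adjusted p = 0.000162). The pro-death bbc3 was 5.07-fold higher and the cyclin CCNG1 1.72-fold higher. FDXR, a mitochondrial reductase, was 2.38-fold lower, and the stress gene GADD45A had GADD45A (ENSDARG00000043581) higher (2.25-fold) and GADD45A (ENSDARG00000104571) lower (3.9-fold; its call was lost without exposed mutant library 3 or 4 or exposed wild-type library 3). Without exposed mutant library 3 or exposed wild-type library 3 the list had 3 lower members. The stress-induced cofactor nupr1a (ENSDARG00000094300) stood at 11.3, 15.4, 17.5, 17.6 and 22.4 CPM in exposed wild-type libraries 1 to 5 and at 40.8, 37.4, 50.8, 48.3 and 57.5 CPM in exposed mutant libraries 1 to 5. It did not overlap between the lines, was 2.78-fold higher (adjusted p = 1.87e-06) and changed with arsenite (adjusted p = 0.000162), whereas its paralogue nupr1b was 1.85-fold lower.

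**Figure D2:**
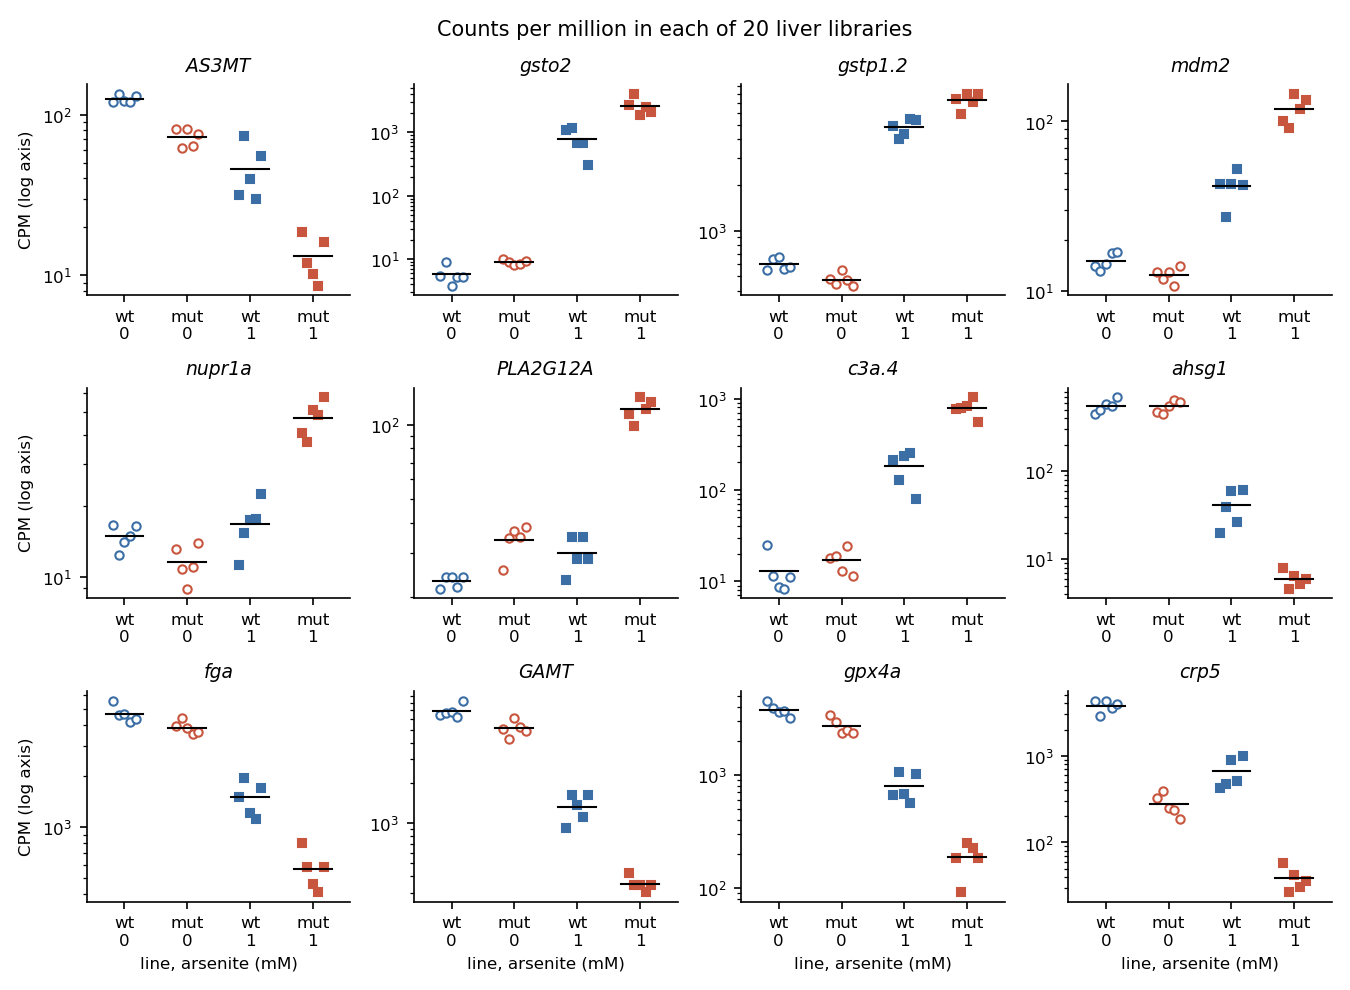
CPM on log axes of 12 genes in each library of wild type (wt, blue) and mutant (mut, red) with 0 mM (open circles) or 1 mM (filled squares) arsenite; black bars are means of 5. For all 12 genes the exposed mutants lie outside the range of exposed wild type. PLA2G12A, c3a.4, ahsg1 and crp5 were picked among genes without overlap.

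Protein folding and disposal differed by compartment. In the cytosol, 12 of 73 heat shock and folding genes were higher and 3 lower (16.4% and 4.11%, median 0.08); without exposed wild-type library 2 or 3, 7 were higher. With total-count scaling 34 were higher and 1 lower, and without arsenite 4 were higher and 12 lower. HSPB1, a small heat shock protein, averaged 22.8 CPM in exposed wild type and 40.7 CPM in exposed mutants, and HSPA4L, an exchange factor of Hsp70, 2.42 and 6.41 CPM. DNAJA2 (ENSDARG00000010745), a co-chaperone of Hsp70, was 2.14-fold lower and was lower without arsenite too (log2 -1.34 ± 0.15). Of 52 proteasome genes 11 were higher and none lower (21.2%, median 0.21). The ATPase subunits PSMC2 and PSMC6 were 1.36-fold and 1.32-fold higher, and the assembly factors PSMG2 and PSMD10 1.47-fold and 1.46-fold higher. Without arsenite 13 proteasome genes were lower and none higher (against 7.91% and 5.91% of all genes), and the difference moved up with arsenite in 14 of 52 (1.31% of all genes). With a filter at a mean of 10 CPM 24 members were higher, and with total-count scaling 43.

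In the endoplasmic reticulum no measured gene of folding and the unfolded protein response was called higher, and 35 of 64 were lower (54.7%, median -0.60). Total-count scaling gave 4 higher and 24 lower, with a median of -0.31. Leaving out single exposed libraries gave at most 1 higher and 26 to 36 lower. The channel through which secreted proteins enter was lower in its 3 parts, SEC61A1 (ENSDARG00000021669) by 1.81-fold, SEC61B by 1.75-fold and SEC61G by 2.61-fold. P4HB (ENSDARG00000105116), protein disulfide isomerase, stood at 355, 524, 372, 347 and 545 CPM in exposed wild-type libraries 1 to 5 and at 231, 154, 172, 145 and 179.7 CPM in exposed mutant libraries 1 to 5. The ranges did not overlap, and the difference was 2.43-fold (adjusted p = 3.71e-06). Without arsenite 22 of these genes were already lower, and in 1 the difference moved down with arsenite. With pancreas markers as a covariate 22 were lower. Genes of the integrated stress response and amino acid supply were called less often than all genes (4.35% higher and 8.7% lower, against 7.68% and 12.9%). Of these 46 genes, 2 were higher (eif2ak2 and nupr1a) and 4 lower. The largest of these, DDIT4 (ENSDARG00000037618), an inhibitor of mTOR signalling, stood at 10.8, 6.24, 8.75, 8.63 and 15.6 CPM in exposed wild-type libraries 1 to 5 and at 0.779, 0.461, 0.898, 0.871 and 0.616 CPM in exposed mutant libraries 1 to 5. The lines did not overlap, and DDIT4 was 13.7-fold lower (adjusted p = 0.000243); without arsenite its log2 difference was -3.00 ± 0.63 (adjusted p = 0.00309). None of 23 aminoacyl-tRNA synthetases passed the test in either direction (median 0.03, and 3 higher with total-count scaling).

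Nucleolar genes that assemble ribosomes were higher in 15 and lower in 1 of 83 measured members (18.1% and 1.2%, median 0.20), while genes of the ribosome itself were lower. TSR3, which modifies ribosomal RNA, was 1.7-fold higher, and the processome parts UTP4, UTP23 and WDR36 were 1.52-fold, 1.49-fold and 1.44-fold higher. The difference moved up with arsenite in 10 members. The 15 higher members were 23 in a fit of the exposed libraries alone, 26 with a filter at a mean of 10 CPM and 63 with total-count scaling. Of 81 cytosolic ribosomal protein genes 70 were lower and none higher, with a median of -0.30; RPL3 averaged 2457 ± 158 CPM in exposed wild type and 1858 ± 54.3 CPM in exposed mutants. A like difference was present without arsenite, where 53 were lower with a median of -0.29, and it changed in none. This was a small, even difference that depended on the scaling: with total-count scaling the median was -0.01 and none was lower. The count was 38 without exposed wild-type library 5 and 18 without both that library and exposed mutant library 1. The respiratory chain list was alike, with 32 of 86 lower and 2 higher (median -0.29), 44 lower without arsenite, and 1 lower with total-count scaling (median -0.01). Its count of lower genes was 13 to 15 without exposed wild-type library 2 or 5 or exposed mutant library 3 or 4. cox7a1, a subunit of cytochrome oxidase, was 2.14-fold lower and NDUFB2, of complex I, 3.4-fold higher and higher without arsenite as well (log2 1.64 ± 0.41). The other higher gene was COX5B (ENSDARG00000068738), at 2.16 and 6.27 CPM.

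**Figure D3:**
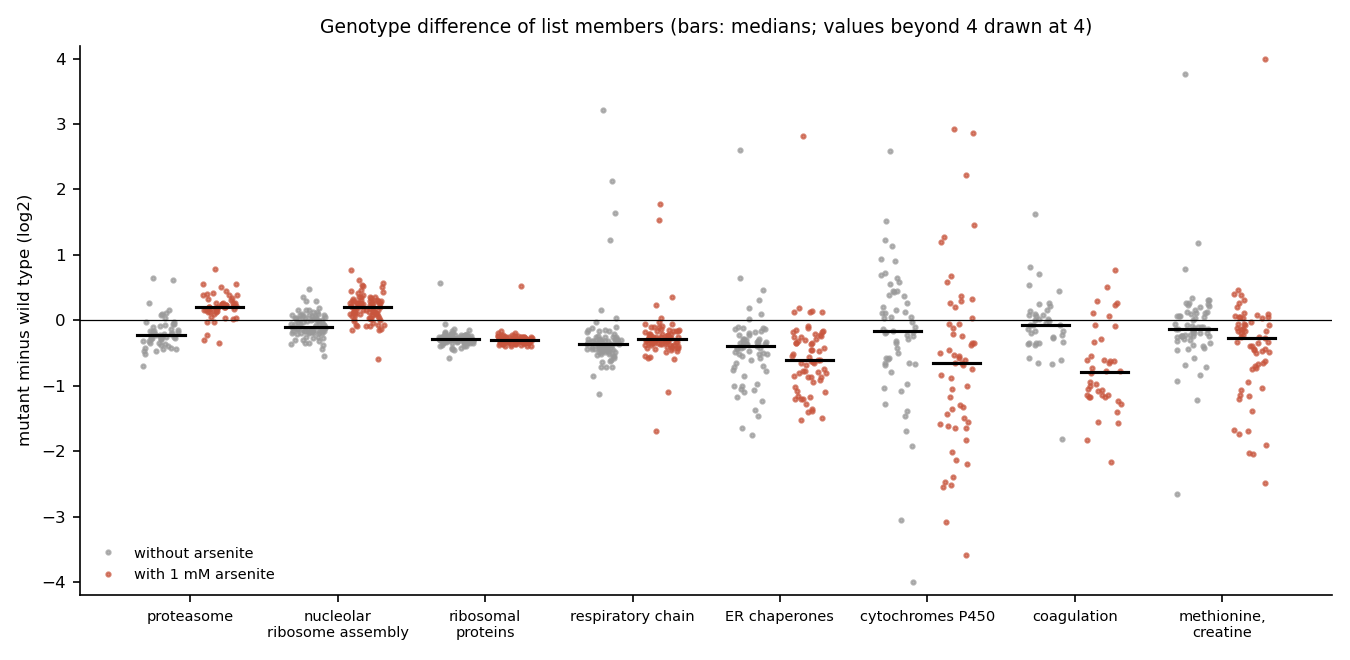
Log2 difference between mutant and wild type of every measured member of 8 gene lists, without arsenite (grey) and with 1 mM arsenite (red); black bars are medians. Proteasome and nucleolar members sit below 0 without arsenite and above it with arsenite under TMM scaling, ribosomal proteins sit alike at both, and coagulation members drop from a median of -0.07 to -0.79. With total-count scaling the methionine and creatine median turned to 0.01.

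Most coagulation genes were lower. Coagulation and fibrinolysis had 28 of 40 members lower and 2 higher (70% and 5%, median -0.79), against 1 lower and 2 higher without arsenite, and the difference moved down with arsenite in 12 (2.67% of all genes). F9 (ENSDARG00000029493), coagulation factor IX, stood at 224, 232, 182, 163 and 158 CPM in exposed wild-type libraries 1 to 5 and at 59.8, 64.2, 64.0, 77.0 and 57.0 CPM in exposed mutant libraries 1 to 5. fga (ENSDARG00000020741), a fibrinogen chain, stood at 1509, 1954, 1204, 1122 and 1696 CPM and at 799.7, 582, 461, 413 and 581 CPM in the same order. Neither overlapped between the lines, with F9 2.98-fold lower (adjusted p = 1.16e-08) and fga 2.64-fold lower (adjusted p = 4.64e-06). The other fibrinogen chains FGB and FGG were 2.95-fold and 2.11-fold lower. Against this, the coagulation inhibitors TFPI and SERPIND1 were 1.71-fold and 1.42-fold higher.

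Plasma carriers and other secreted proteins had 26 of 50 lower and none higher (median -0.64). These counts were 22 and 4 with total-count scaling (median -0.36). ahsg1 (ENSDARG00000026764), a fetuin, stood at 20.0, 38.7, 59, 26.5 and 60.6 CPM in exposed wild-type libraries 1 to 5 and at 7.98, 4.58, 6.34, 5.24 and 5.86 CPM in exposed mutant libraries 1 to 5. Every mutant was below the lowest wild-type pool, by 6.84-fold in the fit (adjusted p = 1.91e-07). In unexposed livers the lines differed by less than their spread, at 552 and 545 CPM (adjusted p = 0.971), and the change passed the test (log2 -2.76 ± 0.34, adjusted p = 0.000162). Another fetuin, fetub, averaged 6521 ± 1856 CPM in exposed wild type and 2341 ± 343 CPM in exposed mutants. The growth factor carrier IGFBP2 (ENSDARG00000031422) was 2.31-fold lower.

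Complement had 17 of 34 genes lower and 2 higher (median -0.66). The C3 paralogues did not move together. c3a.4 (ENSDARG00000093198) stood at 213, 129, 235, 253 and 80.3 CPM in exposed wild-type libraries 1 to 5 and at 759, 791, 827, 1032 and 548 CPM in exposed mutant libraries 1 to 5. It did not overlap and was 4.35-fold higher in mutants (adjusted p = 7.88e-05), and its difference changed with arsenite (adjusted p = 0.0339), while c3b.1 and c3b.2 were 2.09-fold and 2.5-fold lower. Since the paralogues may share reads, their values are uncertain. The regulator cfh was 2.66-fold lower and c8g, of the membrane attack complex, 2.13-fold lower. The other higher gene, c1qa, a product of macrophages, stayed under 1 CPM on average. Acute phase and inflammation genes had 5 lower and none higher of 31 (median -0.12, and 0.17 with total-count scaling). The lower share was 16.1%, against 12.9% of all genes. Without arsenite 6 members were lower (19.4%, against 7.91%). The lower members with arsenite included the pentraxins crp3 and crp5, CEBPD (2.18-fold), a factor of the acute phase response, and the peptide hormone leap2 (4.25-fold). crp5 (ENSDARG00000056498) stood at 425, 466, 886, 509 and 1004 CPM in exposed wild-type libraries 1 to 5 and at 58.2, 26.8, 42.4, 30.6 and 35.7 CPM in exposed mutant libraries 1 to 5. It was 17.0-fold lower in exposed mutants, and about as much lower without arsenite (log2 -3.76 ± 0.28 against -4.09 ± 0.28; adjusted p of the change 0.69). crp3 was 19.5-fold lower with arsenite, and there the difference grew (log2 -2.45 ± 0.44, adjusted p = 0.00388). a2ml, a protease inhibitor, was 3.55-fold lower.

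**Figure D4:**
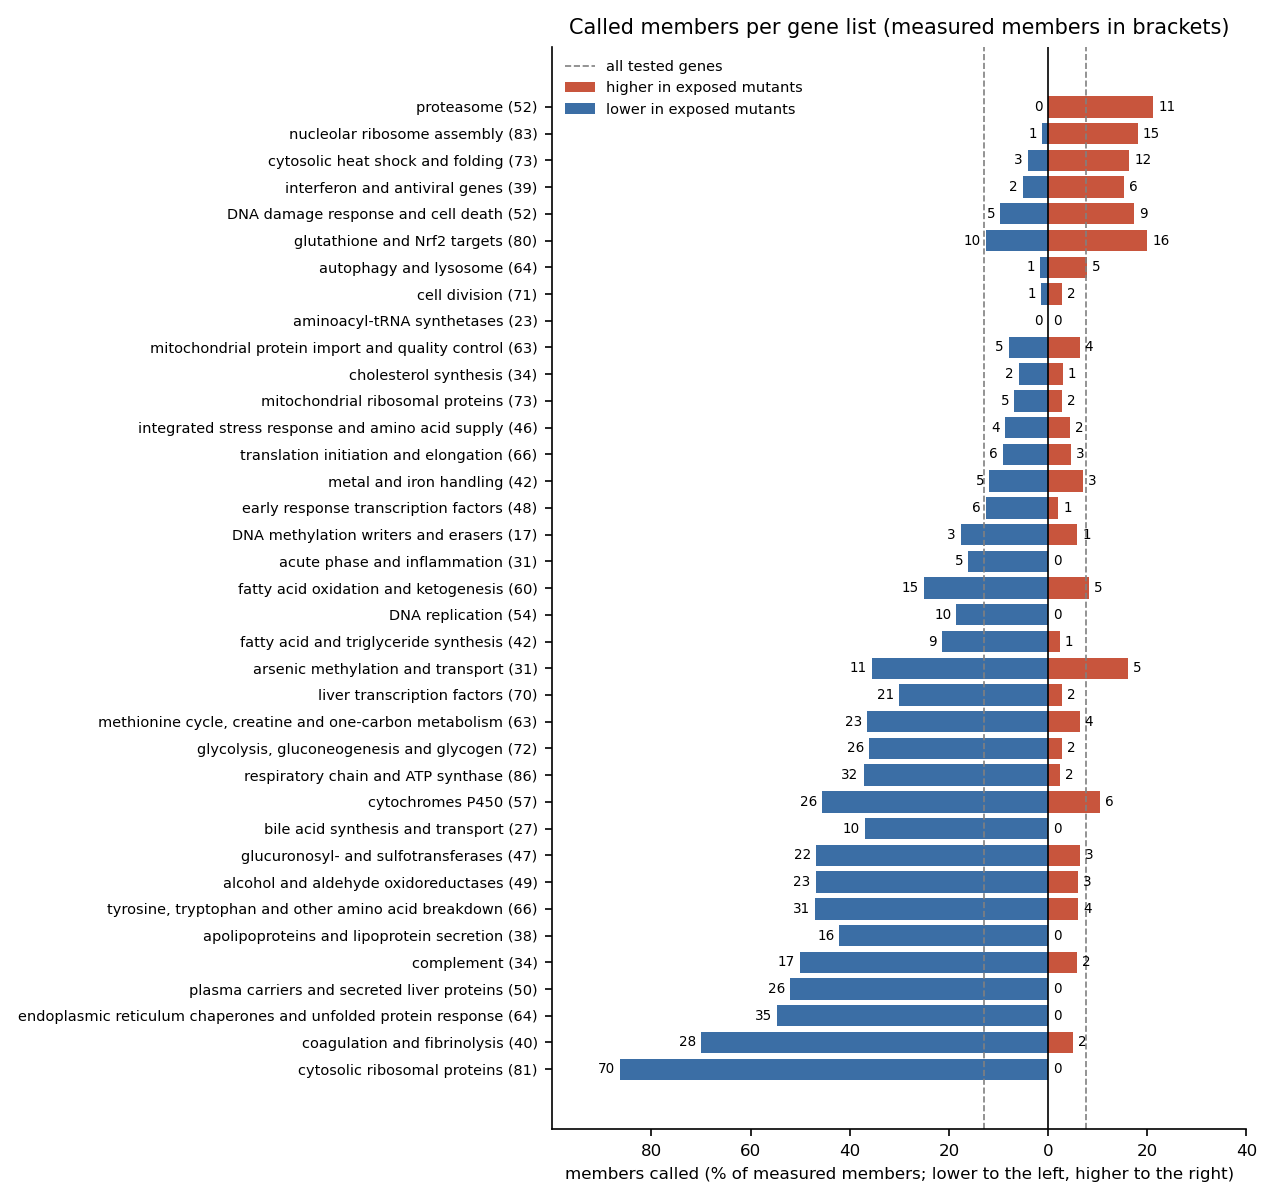
Share of the measured members of 37 gene lists called higher (red, right) or lower (blue, left) in exposed mutants than in exposed wild type, with the number of genes beside each bar; dashed lines mark the 7.68% and 12.9% of all tested genes. Lists of liver secretion and metabolism lie to the left, with 28 of 40 coagulation genes lower, and proteasome, nucleolar and heat shock lists to the right; with total-count scaling no ribosomal protein and 1 respiratory chain gene are lower.

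Lipid transport genes were lower or did not pass the test. Of 38 apolipoprotein and lipoprotein genes 16 were lower and none higher (median -0.63), and 15 lower and 3 higher with total-count scaling (median -0.36). apom (ENSDARG00000076838), a carrier of sphingosine phosphate on high-density lipoprotein, stood at 534, 562, 519, 413 and 862 CPM in exposed wild-type libraries 1 to 5 and at 293, 182, 211, 175 and 248 CPM in exposed mutant libraries 1 to 5. The lines did not overlap, and apom was 2.61-fold lower (adjusted p = 8.17e-06). The abundant apoa1b averaged 49113 ± 9516 CPM in exposed wild type and 25790.3 ± 4839 CPM in exposed mutants, apoc2 was 3.15-fold lower, and apobb.2 (ENSDARG00000075016), an apolipoprotein B, 7.91-fold lower, from 52.2 to 6.59 CPM. Synthesis of triglycerides had 9 of 42 genes lower and 1 higher (median -0.29), and 7 and 3 with total-count scaling (median -0.01). Among the lower were the acyltransferases DGAT2 (2.48-fold) and DGAT1 (ENSDARG00000103503) (1.69 and 0.24 CPM). SOAT2, which esterifies cholesterol, averaged 15.3 ± 15.9 CPM and 1.17 ± 1.24 CPM (log2 -3.68 ± 0.75, -2.82 without exposed wild-type library 1 and -4.61 without exposed mutant library 2), and the cholesterol exporter ABCA1 was 2.08-fold lower, while of 34 cholesterol synthesis genes CYP51A1 alone was called higher (67.4 and 184 CPM; the call was lost without exposed mutant library 5 or exposed wild-type library 2). Bile acid genes were lower in 10 of 27, with the hydroxylase CYP7B1 2.92-fold and the phospholipid exporter ABCB4 2.18-fold lower. Fatty acid oxidation had 15 of 60 lower and 5 higher (25% and 8.33%, against 12.9% and 7.68% of all genes). Its median of -0.15 turned to 0.13 with total-count scaling. The count of lower members fell to 7 to 9 without exposed mutant library 3 or 4 or exposed wild-type library 5. The higher members, 3 without exposed mutant library 3, included the activating enzymes ACSL1 (1.61-fold) and acsl1b (3.52-fold).

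Enzymes of drug and steroid metabolism were lower more often than higher. Of 57 cytochromes P450 26 were lower and 6 higher (45.6% and 10.5%, median -0.65). Many are close paralogues. Total-count scaling gave 22 lower and 11 higher, and a filter at a mean of 10 CPM gave 17 lower and 3 higher. cyp2ad6 (ENSDARG00000042956) stood at 23.5, 61.9, 38.9, 28.1 and 42.9 CPM in exposed wild-type libraries 1 to 5 and at 9.68, 8.32, 5.46, 5.83 and 8.06 CPM in exposed mutant libraries 1 to 5. Every mutant was below the wild-type range, by 5.23-fold (adjusted p = 1.15e-07), and the difference without arsenite was smaller (log2 -1.08 ± 0.20; adjusted p of the change 0.0126). cyp2aa12 was 4.02-fold lower with arsenite and did not pass the test without it, whereas cyp2p7 was lower at both (3.55-fold with arsenite, log2 -1.70 ± 0.20 without). cyp2k16 was higher at both (2.29-fold with arsenite, log2 1.13 ± 0.21 without). Conjugating enzymes had 22 of 47 lower and 3 higher (median -0.38), and 20 lower and 6 higher with total-count scaling (median -0.09). Among the lower were sult3st2, a sulfotransferase, by 5.23-fold and ugt5b2, a glucuronosyltransferase, by 3.58-fold. The enzyme that makes the sugar donor for glucuronidation, UGDH (ENSDARG00000019838), went the other way. It averaged 139 ± 21.5 CPM in exposed wild type and 399 ± 35.6 CPM in exposed mutants, 2.87-fold higher (adjusted p = 3e-08). Alcohol and aldehyde oxidoreductases had 23 of 49 lower and 3 higher (median -0.48), and 20 lower and 7 higher with total-count scaling (median -0.19). Of these, akr1a1a was 7.55-fold, aldh2.2 2.21-fold and the carbonyl reductase CBR1 2.42-fold lower. aldh3b1, an aldehyde dehydrogenase, was 1.7-fold higher.

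Methionine, creatine and one-carbon metabolism had 23 of 63 genes lower and 4 higher, with a median of -0.27 that became 0.01 with total-count scaling. Creatine synthesis, a large consumer of methyl groups, was lower at both steps. GAMT (ENSDARG00000070844), the methyltransferase, stood at 916, 1629.6, 1365, 1106 and 1623 CPM in exposed wild-type libraries 1 to 5 and at 424, 344, 344, 305 and 345 CPM in exposed mutant libraries 1 to 5. GATM, the step before it, averaged 1472 ± 305 CPM in exposed wild type and 441 ± 133 CPM in exposed mutants. Neither overlapped, and the differences were 3.77-fold (adjusted p = 2.94e-08) and 3.34-fold (adjusted p = 6.47e-06). For GAMT the difference grew with arsenite (adjusted p of the change 0.000445), and for GATM that change did not pass the test (adjusted p = 0.366). CSAD, of taurine synthesis, was 5.61-fold lower and GLDC, of glycine cleavage, 3.21-fold lower. ETHE1, which oxidizes sulfide in mitochondria, was 1.39-fold higher, and SDSL (ENSDARG00000074698), named for a serine dehydratase, averaged 0.0344 CPM in exposed wild type and 1.4 CPM in exposed mutants, against 0.166 and 2.28 CPM without arsenite.

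Breakdown of amino acids was lower in 31 and higher in 4 of 66 genes (median -0.45). These counts were 20 and 9 with total-count scaling, with a median of -0.16. AGXT (ENSDARG00000018478), which clears glyoxylate, averaged 2571 ± 540.2 CPM in exposed wild type and 638 ± 129 CPM in exposed mutants, 4.03-fold lower, with a smaller difference without arsenite (log2 -0.66 ± 0.14; adjusted p of the change 0.000693). OAT, ornithine aminotransferase, was 3.39-fold lower and the tryptophan dioxygenase ido1 averaged 2.09 CPM in exposed wild type and 0.22 CPM in exposed mutants. DDAH1, which hydrolyses methylated arginine, was 4.32-fold lower in exposed mutants and did not pass the test without arsenite. Carbohydrate genes had 26 of 72 lower and 2 higher (median -0.38), and 19 lower and 4 higher with total-count scaling (median -0.10). Glycogen synthase GYS2 averaged 521 ± 80.4 CPM in exposed wild type and 214 ± 56.7 CPM in exposed mutants, 2.44-fold lower. The glucokinase regulator gckr was near the limit of counting in exposed mutants (0.00699 CPM on average against 0.492 CPM). fbp1a, a fructose bisphosphatase of gluconeogenesis, was 2.31-fold higher.

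Among liver transcription factors 21 of 70 were lower and 2 higher (median -0.42). Scaled to total counts, 14 were lower and 8 higher (median -0.14). In 8 factors the difference moved down with arsenite under TMM scaling. BHLHE41 (ENSDARG00000041691), a repressor of the circadian clock, stood at 26.4, 22.2, 28.8, 17.7 and 33.1 CPM in exposed wild-type libraries 1 to 5 and at 4.43, 5.91, 3.5, 4.81 and 2.99 CPM in exposed mutant libraries 1 to 5. Its range in mutants lay below that in wild type, 5.91-fold in the fit (adjusted p = 6.12e-08). The related BHLHE40 was 3.09-fold lower, the clock output factor hlfa 2.04-fold lower, and the thyroid receptors differed in direction, THRA (ENSDARG00000052654) 2.36-fold lower and THRB 2.7-fold higher. Of 48 early response genes 6 were lower (12.5%, near the 12.9% of all genes) and 1 higher. With total-count scaling 4 were lower and 6 higher, and with the pancreas covariate 3 were lower. The higher gene was JUNB (ENSDARG00000104773), at 4.2 and 16.3 CPM. JUNB was higher without arsenite too, at 7.0 and 22.7 CPM (log2 1.70 ± 0.33), and the change did not pass the test (adjusted p = 0.83). DNA replication genes had 10 of 54 lower (18.5%, against 12.9% of all genes) and none higher. Among the lower were the helicase parts MCM7 (1.64-fold) and MCM6 (ENSDARG00000057683) (1.66-fold), and the ranges of both overlapped. That count was 2 without exposed wild-type library 1, 3 to 5 without exposed mutant library 1, 3, 4 or 5, and 0 with total-count scaling. Cell division genes had a median of 0.03, close to the -0.03 of all genes. They were called less often, with 2 higher and 1 lower of 71 (2.82% and 1.41%, against 7.68% and 12.9%).

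Some genes separated the lines at either exposure. fkbp16 (ENSDARG00000001976) stood at 17.3, 48.3, 54.8, 50.1 and 24.9 CPM in exposed wild-type libraries 1 to 5 and at 0.123, 0.0988, 0.0573, 0.095 and 0.066 CPM in exposed mutant libraries 1 to 5. Exposed mutants thus held a few counts each, as did unexposed mutants (0.0732 CPM on average against 93.0 CPM in unexposed wild type). CCDC134 (ENSDARG00000103285), ifi27.5 and vwa7 behaved alike, at 11.7, 15.3 and 4.73 CPM in exposed wild type and at or near 0 in mutants. VDAC1, the outer mitochondrial membrane channel, was 5.27-fold lower with arsenite and lower without it (log2 -2.95 ± 0.22, adjusted p = 3.22e-08). In the other direction LIAS, which makes lipoic acid, was 2.1-fold higher with arsenite and higher without it (log2 1.36 ± 0.09, adjusted p = 6.34e-09). At 0 counts in all 5 exposed wild-type libraries and at 1 CPM or more in all 5 exposed mutants were 6 genes, 4 of them at 0 in unexposed wild type too; 3 of the 6 carry the symbol GGACT, so their reads may be shared, and the others are si:ch211-209l18.4, ENSDARG00000070506 and ENSDARG00000070516. The reverse held for 2 genes, zgc:194221 and si:dkeyp-1h4.8, both at 0 in unexposed mutants as well. No fold is given for genes at 0.

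Genes beside as3mt were called more often than genes elsewhere at both exposures. Gene order came from the GRCz12tu assembly, on which 11436 tested genes (69.8%) were placed by name. Of the 25 measured genes on each side, 11 were higher and 7 lower in exposed mutants (36.0%, against 20.3% of placed genes), 10 were higher and 7 lower without arsenite (34.0%, against 13.7%), and 11 were called the same way at both. With 10 genes on each side 30.0% were called with arsenite and 45.0% without it. These shares are descriptions without a test.

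Genes with the largest called differences not yet named were mostly of low to moderate level. PLA2G12A (ENSDARG00000070454), a secreted phospholipase A, had the smallest p among the higher genes with an ordinary symbol (no clone, accession or identifier name). It stood at 23.4, 34.8, 28.5, 35.0 and 28.4 CPM in exposed wild-type libraries 1 to 5 and at 110.2, 98.7, 129, 116 and 124 CPM in exposed mutant libraries 1 to 5. The lines did not overlap, the difference was 3.85-fold (adjusted p = 1.49e-09), and it grew with arsenite (log2 1.38 ± 0.17, adjusted p = 0.000162). slc2a9l1 (ENSDARG00000070672), named for a urate transporter of the glucose transporter family, stood at 5.11, 6.09, 3.81, 1.69 and 7.0 CPM in exposed wild-type libraries 1 to 5 and at 50.0, 83.9, 45.4, 82.5 and 49.5 CPM in exposed mutant libraries 1 to 5. All exposed mutants were above all exposed wild types (13.2-fold), while unexposed livers of both lines were below 1 CPM on average. themis2 averaged 0.773 ± 1.4 CPM in exposed wild type and 21.2 ± 4.22 CPM in exposed mutants. Its log2 difference was 4.83 ± 0.79, and 7.16 without exposed wild-type library 2, the one exposed wild-type pool with more than traces. The zinc finger repressor ZBTB16 averaged 4.41 ± 1.19 and 26.3 ± 6.96 CPM. Both were higher without arsenite too, themis2 at log2 3.39 ± 0.84 (edgeR adjusted p = 0.0102) and ZBTB16 at 1.78 ± 0.28 (adjusted p = 0.000292). Neither change with arsenite passed edgeR's test (adjusted p = 0.546 and 0.282). Among lower genes, SLC16A12 (ENSDARG00000017773), a creatine transporter in mammals, averaged 100.2 ± 29.5 CPM and 9.54 ± 5.61 CPM. Its difference was 10.5-fold with arsenite, did not pass the test without it (log2 -0.05 ± 0.30) and changed (adjusted p = 0.000248). REEP2 was 9.23-fold and the nuclear receptor NR0B1 6.04-fold lower, and ENOSF1 2.94-fold lower.

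Hepatocyte markers were lower, as were the secretory and metabolic lists, and markers of other cells moved less evenly. The hepatocyte list shares genes with those lists, among them fga, FGB, FGG and ahsg1, so it is not separate evidence. In bulk tissue fewer cells of a type and less RNA per cell cannot be told apart. Hepatocyte markers summed to 75841, 100800.1, 102483, 90886 and 137851 CPM in exposed wild-type libraries 1 to 5 and to 66877, 42011, 57983, 44192 and 61431 CPM in exposed mutant libraries 1 to 5. The groups did not overlap, and 18 of 23 members were lower and none higher (median -0.92). Endothelial markers summed to 189.8 to 233 CPM in exposed wild type and 136 to 149.9 CPM in exposed mutants under TMM scaling. Of 26 members 11 were lower and none higher (7 lower without exposed wild-type library 2), among them the vascular receptor kdrl at 1.55-fold. With total-count scaling 5 were lower and 1 higher. With a filter at a mean of 10 CPM 4 were lower, and with the pancreas covariate 8. Stellate cell and matrix markers summed to 1048 to 2174 and 519 to 769 CPM. Of these, 6 of 32 were lower (18.8%, against 12.9% of all genes), with a median of -0.22 that became 0.06 with total-count scaling. FN1 (ENSDARG00000006526), fibronectin, which hepatocytes also make, averaged 1310.1 ± 409.8 and 439 ± 97.5 CPM. Cholangiocyte, macrophage and neutrophil, and erythrocyte markers had 4, 0 and 2 members lower of 18, 30 and 19 (22.2%, 0% and 10.5%). Their sums overlapped between the lines for cholangiocytes (1929 to 2278 and 1741 to 1987 CPM) and erythrocytes (357 to 503 and 400.2 to 521 CPM). Those of macrophages and neutrophils did not (204 to 265 and 148 to 200.5 CPM). ca2 (ENSDARG00000014488), carbonic anhydrase of erythrocytes and other cells, was 3.15-fold lower.

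Counts of pancreas and muscle markers changed with single libraries. Of 25 exocrine pancreas markers 7 were higher and none lower, and prss1, trypsin, averaged 7.25 ± 3.37 CPM in exposed wild type and 45.7 ± 51.5 CPM in exposed mutants, with overlap and a call lost without exposed mutant library 1 or exposed wild-type library 2 or 4. The median difference was 2.81 with arsenite and 2.65 without it. The count of higher markers was 1 without exposed mutant library 1 and 0 without both that library and exposed wild-type library 5. Leaving out exposed mutant library 5 gave 14, leaving out exposed mutant library 4 gave 3, and leaving out any of the 5 exposed wild-type libraries gave 2 to 4. Muscle markers summed to 39.4, 7.22, 188, 7.77 and 5.33 CPM in exposed wild-type libraries 1 to 5 and to 12.5, 33.3, 26.1, 6.37 and 15.5 CPM in exposed mutant libraries 1 to 5. Wild-type library 3 stood far above the rest. Of 20 muscle markers 5 were lower, a count that was 1 without exposed wild-type library 3 or exposed mutant library 4, 2 without exposed mutant library 3 or 5, 3 without exposed mutant library 2, and 8 without exposed wild-type library 2 or 4. Skin markers had 4 lower and 1 higher of 17 (23.5% and 5.88%, against 12.9% and 7.68% of all genes), with the keratin krt92 2.6-fold lower. The count of lower skin markers was also 4 when any 1 exposed library was left out. Intestine markers had 3 lower and 3 higher of 15 (20% each way), with the amino acid transporter SLC6A19 (ENSDARG00000091560) 6.07-fold higher.

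**Figure D5:**
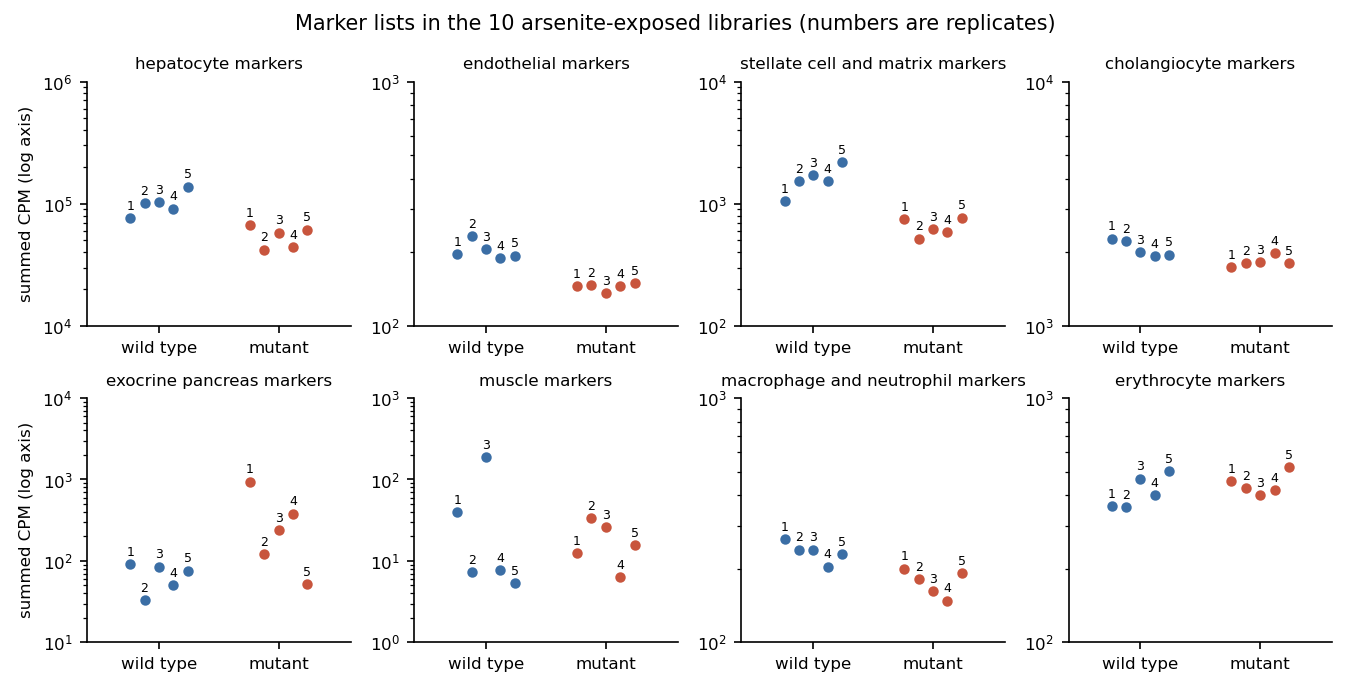
Summed CPM (log axes) of 8 lists of cell type markers in the 5 exposed wild-type (blue) and 5 exposed mutant (red) libraries, with replicate numbers. Under TMM scaling, hepatocyte, endothelial and stellate sums do not overlap between the lines. Pancreas sums are highest in mutant library 1 at 941 CPM, and wild-type library 3 holds the highest muscle sum at 188 CPM.

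Most lists not described so far had few called members. Autophagy and lysosome genes had 5 higher and 1 lower of 64 (7.81% and 1.56%, against 7.68% and 12.9% of all genes). The higher share was thus that of all genes. The kinase ULK1, which starts autophagy, was 1.97-fold higher. Mitochondrial ribosomal proteins had 2 higher and 5 lower of 73 (2.74% and 6.85%). Mitochondrial import and quality control had 4 and 5 of 63 (6.35% and 7.94%), and translation factors 3 and 6 of 66 (4.55% and 9.09%). These counts depended on the scaling: with total-count scaling 22 autophagy, 30 mitochondrial ribosomal, 19 import and 33 translation genes were higher and 0, 0, 1 and 2 lower. Lower mitochondrial ribosomal genes numbered 3 without exposed mutant library 3 or 4 or exposed wild-type library 5, and 9 without exposed wild-type library 3, which also gave 10 lower import genes. The unfoldase clpb was 1.88-fold higher and the import chaperone TIMM9 1.51-fold lower. Metal and iron handling had 3 higher and 5 lower of 42 (3 lower without exposed mutant library 4 or exposed wild-type library 2 or 5). DNA methylation genes had 1 and 3 of 17 (5.88% and 17.6%). The metal and iron shares, 7.14% and 11.9%, were near the 7.68% and 12.9% of all genes. With total-count scaling 11 metal and iron genes were higher and 0 lower. Interferon and antiviral genes had 6 higher and 2 lower of 39 (15.4% and 5.13%, against 7.68% and 12.9% of all genes). Without arsenite 6 were higher, and with arsenite a filter at a mean of 10 CPM left 1 higher. eif2ak2, an antiviral kinase, differed at both exposures, at log2 1.65 ± 0.26 with arsenite and 1.48 ± 0.28 without it.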

How the data were processed

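RNA-seq counts per gene were deposited by the authors as 1 file per library. Per the submitters' processing notes the tools included FastQC 0.11.5 and Trimmomatic 0.36, and the build was GRCz10. No aligner, counter or annotation is named in the sources used here. The labels' protocols name both a non-stranded and a directional library kit, so overlapping and antisense genes are uncertain. No rows without a gene were present among the 32105 identifiers. Names came from a symbol table that matched 26269 of them (81.8%), and 4144 share a symbol, so identifiers are given for those.

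Libraries were grouped by the genotype and the arsenite dose in the labels, 5 in each of 4 groups. The genes, lists and tests were chosen with earlier results of these data known. One edgeR 4.0.16 fit (R 4.3.3, filterByExpr, TMM, quasi-likelihood F test) of the 4 group means over 20 libraries gave all contrasts. A gene was called at a Benjamini-Hochberg adjusted p under 0.05 over 16389 genes. Folds and log2 differences come from that fit and are given with standard errors, and CPM values use TMM-scaled library sizes. The 49 lists held 2392 entries, of which 2112 matched, and are described by counts and medians. Named genes were as3mt and the 10 largest non-overlapping called differences each way with a mean of at least 10 CPM. Others had the smallest adjusted p in the exposed comparison, for the change with arsenite, or without arsenite where called the same way. All these picks but as3mt were limited to ordinary symbols, without clone, accession, placeholder or identifier names. Members with the smallest adjusted p in each list were taken without that limit. Alternatives were DESeq2 1.42.0, other scalings and filters, robust dispersions, a replicate block, a pancreas marker covariate, 1 exposure alone and single libraries left out. Leaving out exposed mutant library 1 together with exposed wild-type library 5 was added after the data were seen. On simulated counts for 16104 genes of the exposed comparison the fit recovered 22.4% of 1.5-fold, 59.7% of 2-fold and 92.4% of 4-fold changes, and 1.69% of its calls were false. The simulated libraries shared a common mean per gene, apart from a small set of well-counted genes that were changed. They held no wide difference between lines, scaling shift or outlying library, so the share of false calls does not carry over to the data. PCR copies cannot be told from separate molecules. Some genes are not reported here.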

Additional observations from a re-analysis of the deposited data

Results flagged for a closer look

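In 66 of 141 named genes the difference between the lines changed with arsenite, by edgeR's test of the interaction with adjusted p under 0.05, upward in 15 and downward in 51. Named genes were chosen partly for the smallest p of this change, and over all genes 652 of 16389 changed (3.98%). The values below are the log2 difference with arsenite minus that without it. Those of gckr, ido1, DGAT1 and c1qa include a group near 0 CPM, so their size depends on the prior count and is no bound. For SOAT2, exposed wild-type library 1 at 42.8 CPM and exposed mutant library 2 at 3.38 CPM stood apart from their groups. Downward changes beyond 2 were those of gckr -4.57, SOAT2 -4.38, apobb.2 -3.34, SLC16A12 (ENSDARG00000017773) -3.34, ido1 -3.16, ahsg1 -2.76, REEP2 -2.69, akr1a1a -2.49, crp3 -2.45, DDAH1 -2.28 and NR0B1 -2.19. Those between 1.5 and 2 were BHLHE41 -1.97, cyp2aa12 -1.82, sult3st2 -1.76, apoc2 -1.75, DGAT1 (ENSDARG00000103503) -1.69, CBR1 -1.69, gpx4a -1.60, GLDC -1.57, ENOSF1 -1.56, CSAD -1.56, FN1 (ENSDARG00000006526) -1.55 and SLC22A2 -1.51. Smaller downward changes were those of GAMT -1.49, BHLHE40 -1.48, MIOX -1.36, AGXT (ENSDARG00000018478) -1.35, apom -1.34, cyp2ad6 -1.31, fetub -1.22, FGB -1.21, F9 -1.20, CKB (ENSDARG00000069752) -1.14, fga -1.13, DGAT2 -1.12, MCM6 (ENSDARG00000057683) -1.12, selenop -1.12 and UCP1 -1.10. The least were krt92 -1.05, cfh -1.03, pnp4b -1.0, shbg -0.99, IGFBP2 (ENSDARG00000031422) -0.99, OAT -0.97, MAT2A (ENSDARG00000040334) -0.91, FGG -0.91, MCM7 -0.88, cox7a1 -0.84, THRA (ENSDARG00000052654) -0.83, GYS2 -0.83 and kdrl -0.58. Upward changes were c1qa 3.77, nupr1a 1.84, mdm2 1.77, c3a.4 1.72, PLA2G12A 1.38, PSMD10 1.07, fbp1a 1.05, gstp1.2 0.93, UGDH 0.79, TSR3 0.70, GPC4 0.70, clpb 0.69, sart1 0.69, WDR36 0.64 and PSMC2 0.52.

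A single library stood apart from the other 4 of its group, by Dixon's criterion at 95%, in 17 of 306 sets of 5 values, and chance gives about 1 in 20. Exposed mutant library 1 was apart for DDAH1 at 3.88 CPM against at most 2.38 CPM in the others. Exposed mutant library 2 was apart for GLDC at 46.2 CPM against at most 26.0 CPM, SOAT2 at 3.38 CPM against at most 0.665 CPM and akr1a1a at 0.675 CPM against at least 2.99 CPM in the others. Exposed wild type library 1 was apart for CBR1 at 15.9 CPM against at least 22.5 CPM, SOAT2 at 42.8 CPM against at most 13 CPM and UTP4 at 46.5 CPM against at most 40.6 CPM in the others. Exposed wild type library 2 was apart for ABCA1 at 700.1 CPM against at most 449.6 CPM, NR0B1 at 56.2 CPM against at most 23.1 CPM and themis2 at 3.27 CPM against at most 0.238 CPM in the others. Exposed wild type library 3 was apart for ABCC5 at 27.9 CPM against at most 21.9 CPM, COX5B (ENSDARG00000068738) at 1.16 CPM against at least 2.25 CPM, lymphocyte markers (summed) at 5.32 CPM against at most 4.04 CPM and muscle markers (summed) at 188 CPM against at most 39.4 CPM in the others. Exposed wild type library 4 was apart for GPC4 at 103 CPM against at least 131 CPM in the others. Exposed wild type library 5 was apart for crp3 at 235 CPM against at most 103 CPM and ifi27.5 at 34.0 CPM against at most 12.5 CPM in the others.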

How the results depend on the processing

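The as3mt difference kept its direction and call in all 21 alternatives, between -1.97 and -1.52 on the log2 scale. The 140 other named genes gave 2915 values under the alternatives: 2897 kept direction and call, 18 lost the call in 8 genes, and none reversed. Total-count scaling gave 4294 higher and 1176 lower genes, and a filter at a mean of 10 CPM, with 6408 genes tested, 777 higher and 1195 lower. The cause of the first was not tested beyond the shift of the median from -0.03 to 0.25. DESeq2's Wald test gave 1596 higher and 2223 lower genes and 1083 whose difference changed with arsenite. Without arsenite, 960 genes differed with the pancreas covariate and 1091 with the 10 CPM filter; the cause was not tested. Leaving out single libraries gave 946 to 1234 higher, 1712 to 2072 lower, 1637 to 2802 differing without arsenite and 383 to 793 changed genes, and as3mt at -1.97 to -1.57. Leaving out exposed mutant library 1 and exposed wild-type library 5 gave 1068 and 1691.

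The replicate number follows the letters cl in every title, but the labels do not say that it marks a shared source. Since 1 of 5 correlations between the exposed lines was below 0.1, no block was used for the reported values. That 1 value cannot decide whether libraries with the same number share a source. Deviations of exposed wild-type and mutant libraries with the same number correlated at -0.08, 0.156, 0.222, 0.181 and 0.398 for numbers 1 to 5, and wild-type libraries 2 to 5 correlated best with their own number while library 1 did so with number 2. Within a line, unexposed and exposed libraries of the same number correlated at 0.09, 0.165, 0.016, 0.177 and 0.205 in wild type. In mutants these values were 0.156, 0.189, 0.047, 0.176 and 0.142. In both lines unexposed libraries 1, 2, 4 and 5 correlated best with their own number, and library 3 with number 5. A replicate block over all libraries gave 1464 higher, 2301 lower and 896 changed genes, and a block within the exposed libraries gave 1522 and 1738. In that block lower genes numbered 33 instead of 70 for cytosolic ribosomal proteins, 18 instead of 32 for the respiratory chain and 5 instead of 10 for DNA replication, and prss1 lost its call (adjusted p = 0.0787). Depth limits genes near 0 CPM, whose fitted differences depend on the prior count.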

Other observations

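Some genes outside every list had small p-values and are named here after their values were seen. Mitochondrial carriers were among them: UCP1, an uncoupling protein, averaged 1811 ± 445 CPM in exposed wild type and 603 ± 128 CPM in exposed mutants, MPC2 (ENSDARG00000037679), of the pyruvate carrier, 86.3 ± 13.5 and 21.9 ± 3.99 CPM, and the adenine nucleotide carrier SLC25A5 3920.5 ± 177 and 2636 ± 171 CPM. MPC2 was lower without arsenite as well (log2 -1.71 ± 0.17, edgeR adjusted p = 1.39e-06), and UCP1 was 3.0-fold lower with arsenite (adjusted p = 1.79e-06).

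The organic cation transporter SLC22A2 averaged 128 ± 35.2 CPM in exposed wild type and 39.3 ± 9.15 CPM in exposed mutants, and selenop, the plasma selenium carrier, 205 ± 58.1 and 81.0 ± 24.2 CPM. CKB (ENSDARG00000069752), a creatine kinase, was 2.58-fold lower (adjusted p = 7.9e-05), beside the lower creatine synthesis genes of the report. Inositol oxygenase MIOX and the sex hormone carrier shbg were 2.98-fold and 2.33-fold lower. Among higher genes, the splicing factor sart1 averaged 75.7 ± 4.85 CPM and 109 ± 8.94 CPM, and the cell surface proteoglycan GPC4 was 1.71-fold higher (adjusted p = 0.000108). The cause of these differences was not tested.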
